A study of Mus musculus with 9 samples.

Results

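The mitosis genes are 34 genes whose products condense chromosomes, build the spindle, hold and release sister chromatids and split the cell. They were chosen by name, as a module of genes of known mitotic function, from the 21959 genes of the deposited table, and all 34 were found there. In a dividing cell, cyclin-dependent kinase 1 with cyclin A and cyclin B drives entry into mitosis, kinetochores and motor proteins align the chromosomes, and the anaphase-promoting complex ends mitosis by marking securin and the cyclins for destruction. Transcripts of these genes are known to rise together in G2 and mitosis and to fall in G1, so that in a bulk culture they are often read as a measure of how many cells divide. Mesenchymal stromal cells are adherent cells of the bone marrow that divide in culture.

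RNA was sequenced from a mouse cell line that the labels call BMMSC, of bone marrow tissue, with SV40 in the cell line field. The cells were grown in DMEM/F12 with 10% FBS at 37 °C and 5% CO2, and this holds for each of the 3 groups. For 24 h they were exposed to peritoneal interstitial fluid (PF) of control mice, to PF of mice treated with TNBS for 3 days, or to phosphate-buffered saline (PBS). TNBS, a hapten, is given to rodents to provoke colitis, and the labels describe the TNBS-treated donors as mice with inflammatory bowel disease. The groups are called control PF, TNBS PF and PBS, with 3 libraries each. The sources used here do not give the strain, age or number of the fluid donors, the volume of fluid, or whether it was pooled. Nothing in the labels says that the 3 libraries of a group were grown in separate dishes or met fluid of separate mice, so each p-value reflects only how these libraries vary, which may be technical.

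The libraries held 17.9 to 25.6 M assigned fragments, with 22.9 to 25.6 M in TNBS PF, above the 17.9 to 21.5 M of the other groups. Of 15 stromal markers, 14 had a mean FPKM of at least 1, while Lepr stayed between 0.00565 and 0.0907 FPKM. Their summed FPKM was 1923 to 1974 in TNBS PF, 2008 to 2029 in control PF and 2058 to 2130 in PBS. Summed FPKM of 12 macrophage and monocyte markers was 16.4 to 18.3, 15.6 to 17.4 and 14.7 to 16.0 in the same order, mostly from Cd14, with 2 of the 12 at a mean of at least 1, 3 at 0 in every library, and Ptprc and Adgre1 at or near 0. The 9 neutrophil markers summed to at most 0.558 and the B and T cell markers to at most 1.08. The 14 mesothelial markers, 4 of them at a mean FPKM of at least 1, summed to 52.7 to 57.9 in TNBS PF, 46.2 to 47.6 in control PF and 47.8 to 48.6 in PBS, mostly from Msln, with Muc16 at 0 in each library and Upk3b and Lrrn4 at or near 0. Depth, stromal and mesothelial markers thus moved with TNBS PF, and their part in the results on the mitosis genes was not tested.

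Promoter sequences are shown for the 5 mitosis genes that passed the test as lower in TNBS PF when set against control PF, and for Ccnb1 and Cdk1, which encode the kinase pair of mitotic entry and did not. In such promoters, the cell cycle genes homology region (TTTGAA or TTCGAA) and the CCAAT box are known elements, bound by the DREAM and MuvB complexes and by NF-Y. Each sequence runs 5′ to 3′ on the gene's strand, with 120 bases before the RefSeq transcript start and 30 from it. Capitals mark matches to the CCAAT box or to either form of the homology region, on either strand. The RefSeq start can differ from the gene start of the GENCODE M21 annotation. For Kif4 the printed stretch lies wholly inside the GENCODE gene, which begins at chrX:100625737. The sequences are RefSeq sequences of build GRCm38.p6 and lie, for Top2a at chr11:99024160-99024309 (minus strand), Mki67 at chr7:135716350-135716499 (minus strand), Cenpf at chr1:189688057-189688206 (minus strand), Kif4 at chrX:100625945-100626094 (plus strand), Kif11 at chr19:37376262-37376411 (plus strand), Ccnb1 at chr13:100786457-100786606 (minus strand) and Cdk1 at chr10:69352883-69353032 (minus strand).
Top2a: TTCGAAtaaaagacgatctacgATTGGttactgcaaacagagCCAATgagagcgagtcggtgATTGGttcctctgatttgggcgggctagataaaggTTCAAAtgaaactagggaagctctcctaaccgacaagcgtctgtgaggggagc
Mki67: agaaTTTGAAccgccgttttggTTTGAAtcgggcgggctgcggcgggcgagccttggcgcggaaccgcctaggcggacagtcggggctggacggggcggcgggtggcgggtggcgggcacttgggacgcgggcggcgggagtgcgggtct
Cenpf: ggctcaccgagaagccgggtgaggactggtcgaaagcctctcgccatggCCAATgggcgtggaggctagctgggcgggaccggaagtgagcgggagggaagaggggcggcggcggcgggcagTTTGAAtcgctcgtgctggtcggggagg
Kif4: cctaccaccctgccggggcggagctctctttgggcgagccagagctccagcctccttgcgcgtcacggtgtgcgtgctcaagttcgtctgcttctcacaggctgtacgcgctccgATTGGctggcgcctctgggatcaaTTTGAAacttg
Kif11: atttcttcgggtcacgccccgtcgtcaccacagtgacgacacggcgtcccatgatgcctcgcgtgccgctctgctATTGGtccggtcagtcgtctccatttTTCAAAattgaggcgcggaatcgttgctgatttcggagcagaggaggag
Ccnb1: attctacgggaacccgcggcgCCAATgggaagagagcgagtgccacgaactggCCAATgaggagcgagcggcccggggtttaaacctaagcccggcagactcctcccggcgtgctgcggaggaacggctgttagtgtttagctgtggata
Cdk1: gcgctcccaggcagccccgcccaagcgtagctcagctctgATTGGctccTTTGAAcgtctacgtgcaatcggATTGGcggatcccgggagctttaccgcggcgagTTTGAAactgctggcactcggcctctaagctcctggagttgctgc

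Of the 34 genes, 29 had an entry in the RefSeq promoter table, which holds 300 bases per gene, 250 of them before the start. Ccna2, Aurkb, Kif20a, Tpx2 and Incenp had none. Over these 300 bases and both strands, CCAAT was found in 21 of 29 mitosis genes (72.4%) and in 37.9% of all 27025 promoters. TTTGAA or TTCGAA was found in 22 of 29 (75.9%) and in 19.4% of all promoters, and both elements in 19 of 29 (65.5%) and in 7.70%. Neither element contains the other, but matches may share end bases, and TTCGAA reads the same on both strands. The 5 genes called lower in TNBS PF against control PF held both elements in 5 of 5 promoters, and the other mitosis genes in 14 of 24. These 24 include Cenpe and Nusap1, which were called lower in TNBS PF against PBS. Cenpe held CCAAT alone and Nusap1 held neither element. A link between the elements and the lower levels was not tested. Mki67 has its CCAAT matches upstream of the printed stretch, with the first base 188, 166 and 141 bases before the start, and the Ccnb1 entry holds no TTTGAA or TTCGAA. These matches describe the letters of the promoters and no binding was measured.

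Each of the 34 genes was expressed in all 9 libraries. The level is given in FPKM, fragments scaled to the length of the gene and to the assigned fragments of the library, which allows levels of different genes to be set side by side. The mean over 9 libraries ranged from 9.93 FPKM for Espl1, the protease separase that cuts cohesin, to 124.7 FPKM for Top2a, the topoisomerase that untangles sister DNA, with a median of 39.0. After Top2a followed Tpx2 at 81.0, Ccnb1 at 68.3, Cdk1 at 67.5, Ccnb2 at 67.1, Cdc20 at 63.0 and Mki67 at 62.8 FPKM, and the lowest after Espl1 were Cenpf at 11.7 and Ttk at 16.2. Ccnb1, Cdk1 and Ccnb2 lay closer together than the spread between libraries. Within a group the coefficient of variation was 0.907 to 5.76%, with a median of 2.72%, and a gene held 679 to 27258 recovered fragments in a library.

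The first comparison, TNBS PF with control PF, asks what the fluid of inflamed mice adds to that of control mice. Relative to control PF, 5 mitosis genes were lower in TNBS PF and 0 were higher, by limma with p-values adjusted over the 10537 tested genes at a threshold of 0.05. The lower ones were Top2a, Mki67, the kinetochore protein gene Cenpf and the spindle motor genes Kif4 and Kif11, with falls of 7.16 to 13.0% in mean FPKM. All 34 mitosis genes passed the filter of at least 1 FPKM in 3 libraries, and 5 of 34 is 14.7%, beside 5.45% of all tested genes called lower and 5.15% called higher. At an unadjusted p under 0.05, 1 mitosis gene was higher and 9 were lower, beside 11% and 14.3% of all tested genes, and limma with voom weights on recovered fragments called 0 higher and 7 lower, beside 6.62% and 8.09% of all genes it tested. Fewer dividing cells and less of these transcripts per cell cannot be told apart in bulk RNA.

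The log2 fold changes were small and lay on both sides of 0. The log2 fold change, on the scale of log2(FPKM + 1), was below 0 for 29 of 34 mitosis genes, beside 55.7% of all tested genes. Its median was -0.057 over the mitosis genes and -0.014 over all tested genes, and it ranged from -0.18 to 0.07. With median-ratio scaling of the libraries 22 of 34 mitosis genes were below 0, beside 49.2% of all tested genes. The number was also 22 with a correction for gene length and 22 with one for GC content, each beside 50.3% of all tested genes. The same scaling moved the calls over all genes from 543 higher and 574 lower to 679 higher and 442 lower. The 3 libraries of each group did not overlap for 12 mitosis genes that were lower in TNBS PF and 2 that were higher, beside 18.2% and 13.6% of all tested genes.

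**Figure D1:**
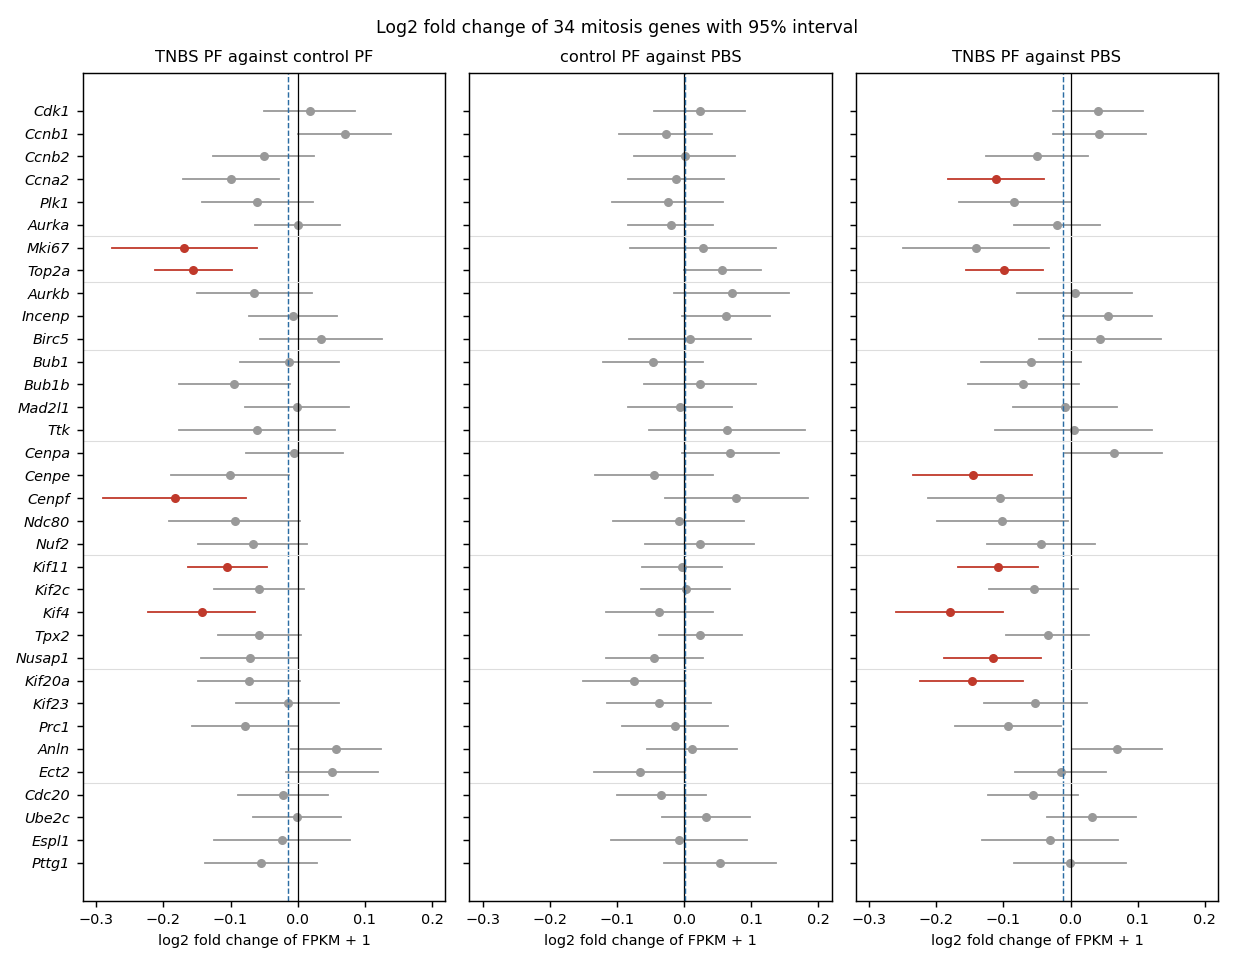
Points give the log2 fold change of FPKM + 1 (horizontal axis) of each of 34 mitosis genes in the 3 comparisons, bars its 95% interval from limma, gray lines separate the roles, red marks an adjusted p under 0.05 and the dashed line is the median of all tested genes. Red points lie below 0 for 5 genes in TNBS PF against control PF and for 7 in TNBS PF against PBS, and there is no red point in control PF against PBS.

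Top2a (ENSMUSG00000020914, chr11:98992943-99024189, minus strand; coordinates of genes are those of GENCODE M21 on mm10) was at 129.7, 129.1 and 133.8 FPKM in control PF, 116.7, 118.2 and 117.3 in TNBS PF, and 127.7, 123.8 and 125.9 in PBS. The 3 TNBS PF libraries were the lowest of the 9, and each control PF library was above each PBS library. The mean was 131 ± 2.52 FPKM in control PF and 117 ± 0.740 in TNBS PF (SD, n = 3), a log2 fold change of -0.16 (SE 0.0267, limma adjusted p = 0.00261). Top2a passed under each of the 19 alternatives tried, with an adjusted p of at most 0.0149.

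Mki67 (ENSMUSG00000031004, chr7:135689784-135716361, minus strand) encodes the Ki-67 antigen, a coat of mitotic chromosomes used as a stain for cycling cells. Its level was 61.4, 64.1 and 71.6 FPKM in control PF, 57.7, 59.3 and 57.6 in TNBS PF, and 66.6, 65.6 and 60.8 in PBS. TNBS PF held the 3 lowest libraries, and control PF 3 stood above all others. Against control PF, Mki67 had a log2 fold change of -0.17 (95% interval -0.28 to -0.06, limma adjusted p = 0.0481), just under the threshold. The call was lost without replicate 2 or 3 of control PF (limma adjusted p = 0.0786 and 0.162) and without replicate 1, 2 or 3 of TNBS PF (0.126, 0.0853 and 0.129). It was also lost with no filter (0.133), TPM scaling (0.0508), median-ratio scaling (0.0691), quantile normalization (0.0833) and the GC correction (0.0517), and Mki67 passed under 7 of the 19 alternatives.

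Among 5 centromere and kinetochore genes, limma called Cenpf lower and 4 were not called, beside 5.45% of all tested genes called lower. Voom called 2 lower, Cenpe and Cenpf, beside 8.09% of all genes it tested. At an unadjusted limma p under 0.05 the same 2 were lower, beside 14.3% of all tested genes. Cenpe, Cenpf and Nuf2, 3 of the 5, were lower without overlap to control PF, beside 18.2% of all tested genes. Cenpf (ENSMUSG00000026605, chr1:189640606-189688086, minus strand) encodes a protein of the outer kinetochore and nuclear matrix. It was at 11.7, 12.2 and 13.6 FPKM in control PF, 10.6, 10.9 and 11.1 in TNBS PF, and 11.9, 11.6 and 11.9 in PBS. No TNBS PF library reached a library of the other groups, and control PF 3 was the highest. Its log2 fold change was -0.18 (SE 0.0493, limma adjusted p = 0.0323), and the call was lost without replicate 2 or 3 of control PF (0.0575 and 0.116) and without replicate 1, 2 or 3 of TNBS PF (0.106, 0.0863 and 0.0616), and with no filter (0.0689). Of the other members, the kinetochore motor gene Cenpe was at -0.10 (limma adjusted p = 0.140), the NDC80 complex genes Ndc80 and Nuf2, which tie kinetochores to microtubules, at -0.09 and -0.07, and Cenpa, the histone that marks centromeres, at -0.005.

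The 5 spindle motor and microtubule genes were lower in each TNBS PF library than in any control PF library, and 2 of the 5 passed the test. Over all tested genes, 18.2% were lower without overlap and 5.45% were called lower. Kif4 (ENSMUSG00000034311, chrX:100625737-100727214, plus strand), a chromosome-bound kinesin, was at 23.7, 24.6 and 25.3 FPKM in control PF, 21.6, 23.1 and 21.6 in TNBS PF, and 25.4, 25.1 and 25.1 in PBS. TNBS PF held its 3 lowest libraries. Its log2 fold change was -0.14 (SE 0.0369, limma adjusted p = 0.0265), and the call was lost without replicate 2 or 3 of control PF (0.0758 and 0.0996) and without replicate 1 or 3 of TNBS PF (0.0970 and 0.101). Exons of Pdzd11 on the other strand cover 15.1% of the exonic bases of Kif4. The mean over 9 libraries was 19.6 FPKM for Pdzd11 and 23.9 for Kif4. Since the strand of the libraries is not given, reads there cannot be assigned to either gene with certainty.

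Kif11 (ENSMUSG00000012443, chr19:37376403-37421859, plus strand) encodes the kinesin that pushes the spindle poles apart. It was at 43.8, 43.7 and 43.6 FPKM in control PF, 40.2, 40.6 and 40.8 in TNBS PF, and 44.3, 43.8 and 43.1 in PBS. The TNBS PF libraries lay below the other 6, which overlapped between control PF and PBS. Kif11 had a log2 fold change of -0.10 (SE 0.0275, limma adjusted p = 0.0286), and leaving out any of the 6 libraries compared brought the adjusted p to between 0.0674 and 0.0950. With all libraries, median-ratio scaling also lost the call of Kif11 (0.0632), which passed under 10 of the 19 alternatives. The microtubule depolymerase gene Kif2c was at -0.06, the spindle assembly gene Tpx2 at -0.06 and the microtubule bundling gene Nusap1 at -0.07, none past the threshold.

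**Figure D2:**
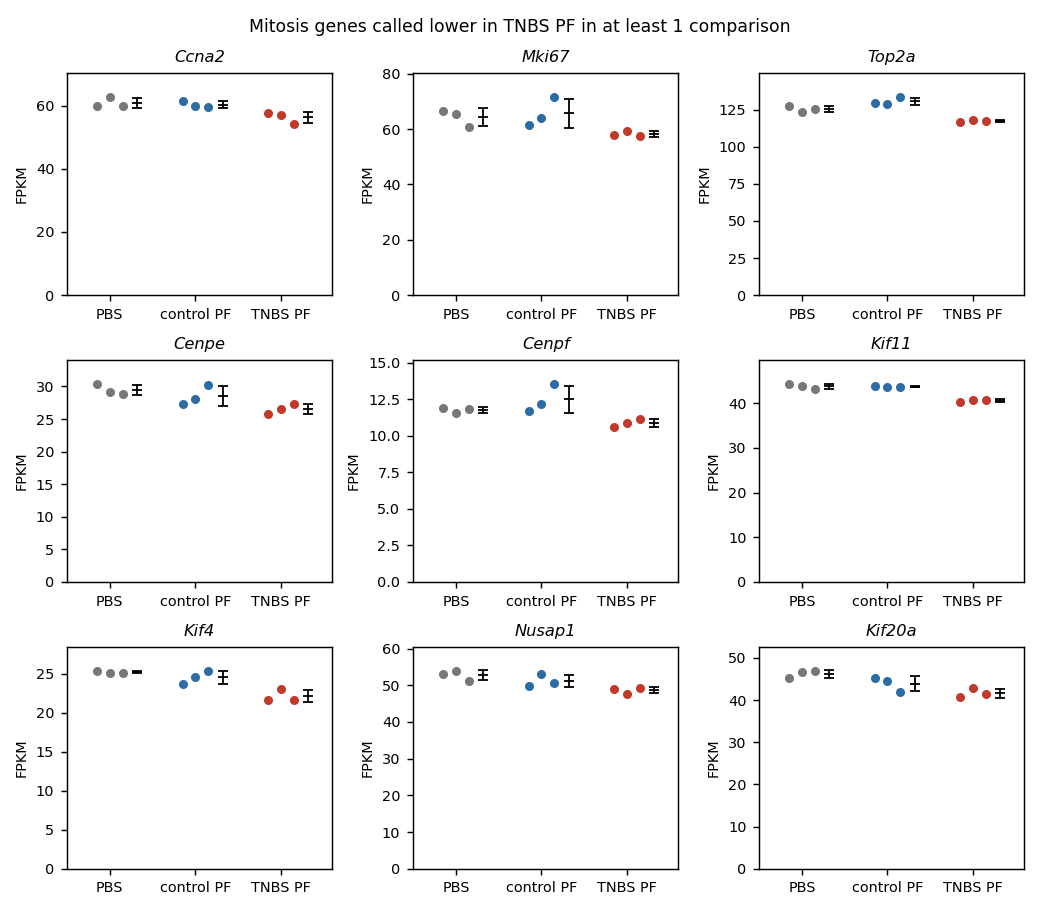
Each panel plots FPKM (vertical axis from 0) of a mitosis gene called lower in TNBS PF in at least 1 comparison, with 1 point per library and the mean ± SD of 3 libraries beside it. The TNBS PF points of Top2a lie between 116.7 and 118.2 FPKM, below all points of the other groups, and the gaps are small relative to the level in each panel.

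Genes of mitotic entry did not pass the test in TNBS PF against control PF in any of 6 cases. Cyclin B1, encoded by Ccnb1 (ENSMUSG00000041431), activates Cdk1, and its transcript was at 67.3, 64.9 and 68.1 FPKM in control PF, 70.9, 67.5 and 72.0 in TNBS PF, and 67.1, 68.9 and 68.2 in PBS. TNBS PF held the 2 highest libraries, and the groups overlapped. Its log2 fold change of 0.07 was the highest of the mitosis genes (95% interval 0.00057 to 0.14, limma adjusted p = 0.194). Cdk1 was at 0.02 (interval -0.05 to 0.09), Ccnb2, a second B-type cyclin, at -0.05, the Polo kinase gene Plk1 at -0.06, the Aurora A gene Aurka at -0.0001 and Ccna2, cyclin A2, at -0.10 (limma adjusted p = 0.0741). Ccna2 was the one gene of the 6 whose TNBS PF and control PF libraries did not overlap, and the one that voom called. Of all tested genes, 18.2% were lower without overlap, and voom called 8.09% of the genes it tested lower. Limma called 5.45% of all tested genes lower and 5.15% higher. At an unadjusted limma p under 0.05, 1 of the 6 was lower (Ccna2) and 1 higher (Ccnb1), beside 14.3% and 11% of all tested genes.

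The passenger complex, which corrects faulty attachments, and the spindle checkpoint, which delays anaphase, held 0 called genes of 3 and of 4 in the limma test and also with voom weights. Limma called 5.45% of all tested genes lower and 5.15% higher, and voom 8.09% and 6.62% of those it tested. With so few genes, a count of 0 is near those shares. In the first, the kinase gene Aurkb was at -0.06, the scaffold gene Incenp at -0.01 and the survivin gene Birc5 at 0.03. In the second, the kinase genes Bub1 and Ttk were at -0.01 and -0.06, Bub1b, encoding BubR1, at -0.09 (limma adjusted p = 0.143) and Mad2l1, encoding the Cdc20 inhibitor Mad2, at -0.001. Bub1b was the one with an unadjusted p under 0.05 among these 7 genes, beside 14.3% of all tested genes that were lower at that level.

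Genes of cytokinesis went both ways in value, with 0 of 5 called by limma. Anln, encoding anillin, a scaffold of the contractile ring, was at 42.4, 42.8 and 43.0 FPKM in control PF, 43.9, 45.0 and 44.6 in TNBS PF and 42.7, 40.9 and 43.6 in PBS. Each TNBS PF library of Anln stood above each of the other 6, with a log2 fold change of 0.06 against control PF (limma adjusted p = 0.278). Ect2, encoding the exchange factor that activates RhoA at the cell equator, was at 0.05 (limma adjusted p = 0.345), also without overlap to control PF. Of all tested genes, 13.6% were higher without overlap. The central spindle genes Prc1, Kif20a and Kif23 were at -0.08, -0.07 and -0.01. The 4 genes of anaphase onset had values of -0.02 for the activator Cdc20, -0.001 for the ubiquitin-conjugating enzyme gene Ube2c, -0.02 for Espl1 and -0.05 for the securin gene Pttg1, and 0 of 4 were called. Among these 9 genes of cytokinesis and anaphase, voom also called 0, and Prc1 was the one with an unadjusted limma p under 0.05 (0.0492). At that level 14.3% of all tested genes were lower. By adjusted p, limma called 5.45% of all tested genes lower and 5.15% higher, and voom 8.09% and 6.62% of those it tested.

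The second comparison, control PF with PBS, asks what fluid of control mice does to the cells. It called 0 of 34 mitosis genes, beside 2.15% of all tested genes, by limma, and 0 also at an unadjusted p under 0.05 (15.6% of all tested genes) and with voom weights (3.55% of all genes it tested). Of the 34, 17 had a log2 fold change below 0, beside 49.5% of all tested genes. The median was -0.001 for the mitosis genes and 0.001 for all tested genes, with a range of -0.07 to 0.08. Cenpf had the highest value (0.08, 95% interval -0.03 to 0.18) and Kif20a the lowest (-0.07, interval -0.15 to 0.002). Libraries did not overlap for Cenpa, Incenp and Top2a, which were higher in control PF, and for Ect2, which was lower, beside 9.33% and 9.32% of all tested genes.

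The third comparison, TNBS PF with PBS, shares the TNBS PF libraries with the first and the PBS libraries with the second, so the 3 are not independent. Relative to PBS, 7 mitosis genes were lower in TNBS PF and 0 higher by limma (20.6% lower, beside 8.88% of all tested genes called lower and 7.8% called higher). At an unadjusted p under 0.05, 1 was higher and 11 were lower, beside 14.2% and 16.8% of all tested genes, and voom weights called 0 higher and 10 lower, beside 9.1% and 11.5% of all genes it tested. With the length correction, 1 mitosis gene, Anln, was called higher (0.10, limma adjusted p = 0.0342). The log2 fold change was below 0 for 25 of 34, beside 53.9% of all tested genes, with a median of -0.051 over the mitosis genes and -0.011 over all tested genes. Libraries did not overlap for 14 mitosis genes that were lower and 3 that were higher, beside 19.7% and 15.5% of all tested genes.

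Kif4 was lowest relative to PBS, with a mean of 22.1 ± 0.814 FPKM in TNBS PF and 25.2 ± 0.162 in PBS (SD, n = 3), a log2 fold change of -0.18 (SE 0.0369, limma adjusted p = 0.00521). It passed under each of the 19 alternatives. Kif11 was at -0.11 (limma adjusted p = 0.0177) and lost the call without replicate 1 or 2 of TNBS PF (0.0646 and 0.0519) or replicate 1 of PBS (0.0517), and with the length correction (0.0540). Top2a was at -0.10 (limma adjusted p = 0.0236) and lost it without replicate 1, 2 or 3 of TNBS PF (0.0783, 0.0567 and 0.0713) or replicate 1 or 3 of PBS (0.0674 and 0.0588), and with median-ratio scaling (0.0585) or the length correction (-0.07, 0.0717). These 3 genes were called in both comparisons of TNBS PF.

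Kif20a (ENSMUSG00000003779), the kinesin that carries passenger proteins to the central spindle, was at 45.2, 44.5 and 41.9 FPKM in control PF, 40.7, 42.8 and 41.4 in TNBS PF, and 45.2, 46.6 and 46.9 in PBS. PBS libraries lay above all TNBS PF libraries, while control PF 3 fell among the latter. Against PBS its log2 fold change was -0.15 (SE 0.0353, limma adjusted p = 0.0126), and the call was lost without TNBS PF 1 (0.0566). Exons of Cdc23 on the other strand cover 29.3% of its exonic bases, at a mean of 9.63 FPKM for Cdc23.

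Cenpe (ENSMUSG00000045328) was at 27.4, 28.1 and 30.2 FPKM in control PF, 25.8, 26.6 and 27.3 in TNBS PF, and 30.4, 29.2 and 28.9 in PBS. Its TNBS PF libraries were the 3 lowest. Against PBS, Cenpe had a log2 fold change of -0.15 (SE 0.0408, limma adjusted p = 0.0276), and its call was lost without replicate 1 or 2 of TNBS PF (0.105 and 0.0713) or replicate 1 of PBS (0.0919), and with no filter (0.0582).

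Nusap1 (ENSMUSG00000027306) was at 49.7, 53.1 and 50.6 FPKM in control PF, 49.0, 47.7 and 49.1 in TNBS PF, and 53.1, 54.0 and 51.2 in PBS. TNBS PF was again below both other groups in each library. Against PBS, Nusap1 had a log2 fold change of -0.12 (SE 0.0334, limma adjusted p = 0.0318), and its call was lost without replicate 1, 2 or 3 of TNBS PF (0.0680, 0.113 and 0.0639) or replicate 1 or 2 of PBS (0.0767 and 0.0859). Median-ratio scaling (0.0636) and the GC correction (0.0529) also lost it, and Nusap1 passed under 11 of the 19 alternatives.

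Ccna2 (ENSMUSG00000027715) was at 61.6, 60.0 and 59.6 FPKM in control PF, 57.7, 57.0 and 54.3 in TNBS PF, and 60.0, 62.8 and 60.0 in PBS, with TNBS PF below all 6 other libraries. Against PBS, Ccna2 had a log2 fold change of -0.11 (SE 0.0329, limma adjusted p = 0.0351), and its call was lost without replicate 2 or 3 of TNBS PF (0.0649 and 0.145) or replicate 2 or 3 of PBS (0.101 and 0.0528). For Ccna2 it was also lost with no filter (0.0556), median-ratio scaling (0.0883), only the 2 groups compared (0.0563) and the GC correction (0.0590), leaving 11 of the 19 alternatives. Exons of Exosc9 on the other strand cover 12.5% of the exonic bases of Ccna2, at a mean of 8.67 FPKM for Exosc9. Mki67 and Cenpf, called against control PF, were at -0.14 and -0.11 against PBS (limma adjusted p = 0.0733 and 0.166).

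Library by library, the mitosis genes moved by little. Their summed FPKM was 1374 to 1387 in TNBS PF, 1422 to 1444 in control PF and 1420 to 1435 in PBS, so that the TNBS PF libraries were the 3 lowest. Of the 34 genes, 25, 25 and 23 were below their own mean over 9 libraries in TNBS PF 1, 2 and 3, against 10, 14 and 12 in control PF and 17, 11 and 9 in PBS. The median deviation from that mean, in log2(FPKM + 1), was -0.033, -0.047 and -0.019 for the mitosis genes in TNBS PF 1, 2 and 3. For all tested genes it was also negative there, at -0.0094, -0.011 and -0.0042. In control PF and PBS it lay between -0.0011 and 0.020 for the mitosis genes and between -4.7e-05 and 0.0089 for all tested genes. The mean of TNBS PF was the lowest of the 3 groups for 24 genes, that of PBS for 8 and that of control PF for 2. These counts were not made over all tested genes. Cdk1, Birc5, Anln and Ccnb1 had their highest mean in TNBS PF.

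**Figure D3:**
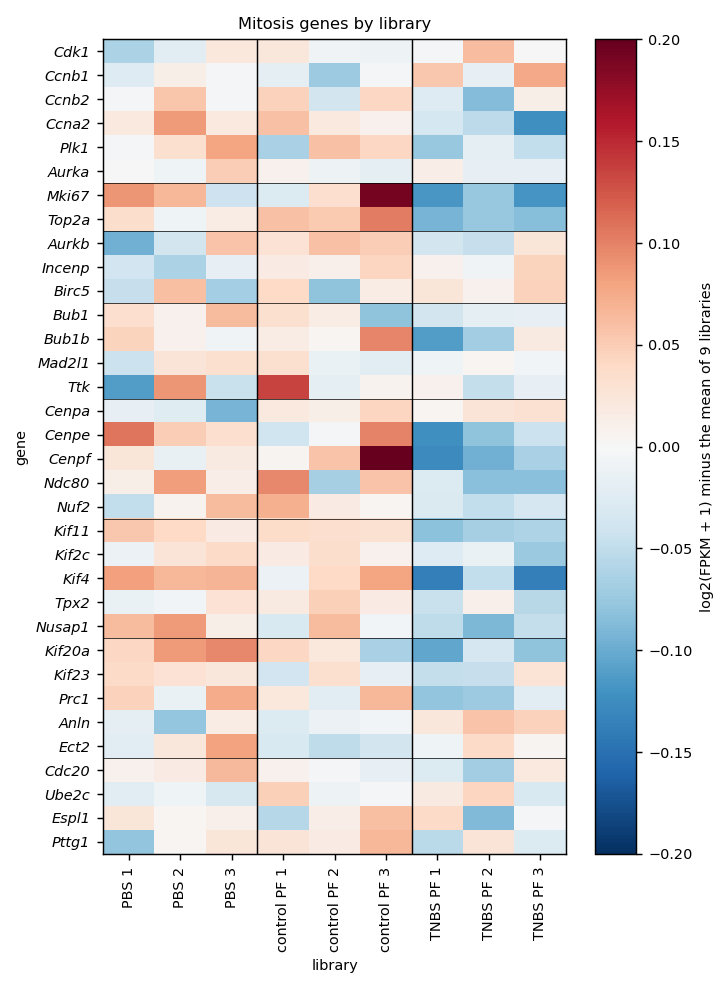
Colours show log2(FPKM + 1) of each mitosis gene (vertical axis, ordered by role) minus its mean over 9 libraries (horizontal axis), with blue below and red above the mean. The 3 TNBS PF columns hold 25, 25 and 23 genes below their mean, and the strongest red is that of Mki67 and Cenpf in control PF 3. In the TNBS PF libraries the median deviation of all tested genes was -0.0094, -0.011 and -0.0042.

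The 3 mitosis genes with the lowest log2 fold changes were long. The exonic length, counted over the exons of all annotated transcripts of a gene, was 15433 bases for Cenpf, 10061 for Mki67 and 9013 for Top2a. It can exceed the length of any single transcript. Other long mitosis genes differed in value. Anln, at 9063 bases, had a log2 fold change of 0.06 against control PF, Espl1 (8749 bases) -0.02 and Mad2l1 (8390 bases) -0.001. Cenpe (8620 bases) was at -0.10 and Prc1 (8225 bases) at -0.08. Spearman's rho of the log2 fold change in TNBS PF against control PF with exonic length was -0.31 over 34 mitosis genes and -0.084 over 10525 tested genes, values that share the same libraries and describe these alone. For genes over 8000 bases the median log2 fold change was -0.09 for 8 mitosis genes and -0.03 for all 1950 tested genes. With a length correction, which was chosen after the data were seen, Top2a (-0.13, limma adjusted p = 0.00325), Cenpf (-0.15, 0.0392) and Kif4 (-0.13, 0.0359) kept the call, and Mki67 (-0.14, 0.0519) and Kif11 (-0.08, 0.0637) lost it.

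**Figure D4:**
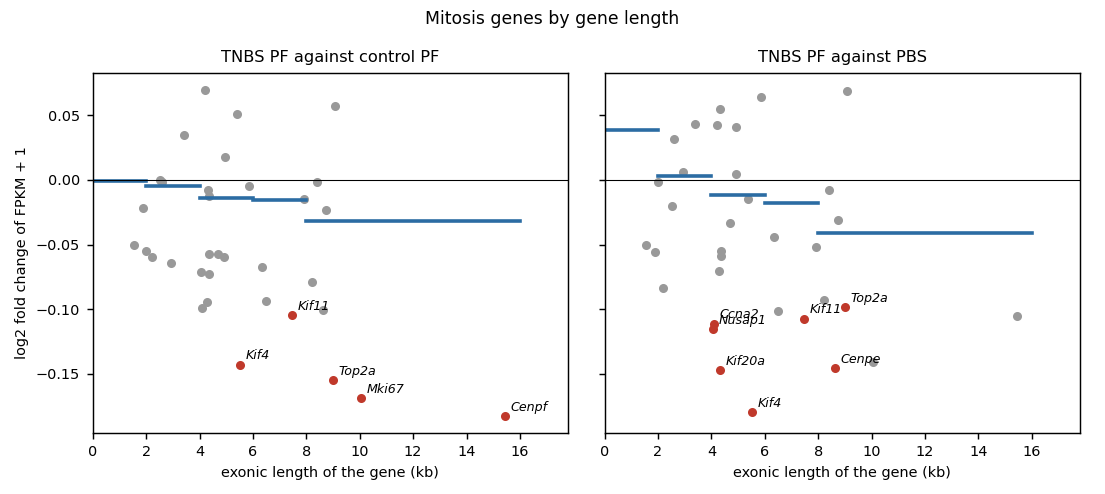
Points give the log2 fold change of FPKM + 1 (vertical axis) of 34 mitosis genes against their exonic length in kb (horizontal axis), red where called, and blue lines give the median of all tested genes in bins of length, the last bin being open above 8 kb. In TNBS PF against control PF the lowest point is Cenpf, which is also the longest of the 34 genes.

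Other genes of the cell cycle were described with lists chosen with earlier results in view, to be read beside 10.6% of all tested genes called in TNBS PF against control PF in either direction. Of 24 regulators of mitotic genes, 1 rose and 1 fell, with a median log2 fold change of 0.02. Mybl2, encoding B-Myb, which binds MuvB at mitotic promoters, rose from 9.58 ± 0.251 to 11.5 ± 0.179 FPKM (0.24, limma adjusted p = 0.00220). Rbl2, encoding p130 of the DREAM repressor, fell (-0.20, limma adjusted p = 0.0230), a call lost without replicate 1 or 3 of control PF (0.0601 and 0.0746) and without replicate 1, 2 or 3 of TNBS PF (0.0604, 0.0661 and 0.0780). Foxm1, a transcription factor of G2 genes, was at 19.5 ± 0.926 FPKM in control PF and 19.3 ± 0.235 in TNBS PF (-0.02, limma adjusted p = 0.866), and E2f1 was at 0.04.

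Among the mechanical genes, 1 of 34 other kinetochore and centromere genes fell and 0 rose, and 1 of 32 other spindle and cytokinesis genes rose and 1 fell, with medians of -0.03 for both lists. The genes were Cenpm, Kif2a and Ckap2l, at -0.29, 0.12 and -0.10 (limma adjusted p = 0.0362, 0.0409 and 0.0485), and their highest adjusted p over the 19 alternatives was 0.143, 0.135 and 0.151. Of 19 condensin and cohesin genes, whose products fold chromosomes and hold sister chromatids, 3 fell and 0 rose, with a median of -0.05. For the kinetochore list and for this one, 0 were higher also at an unadjusted p under 0.05 (11% of all tested genes) and with voom (6.62% of all genes it tested). Ncapd2, a condensin subunit gene, was at -0.15 (limma adjusted p = 0.0121), Stag2, a cohesin subunit gene, at -0.14 (0.0139), and Smc2, of condensin, at -0.10 (0.0492). Ncapd2 was lost without control PF 3 (0.0550) or TNBS PF 2 (0.0504) and Stag2 without control PF 3 (0.0520) or TNBS PF 1 (0.0629). Smc2 had an adjusted p of up to 0.154 among the alternatives and passed under 8 of 19.

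Of 14 genes of mitotic entry and exit control, Cks1b, encoding a subunit of the Cdk1 kinase complex, rose (0.11, limma adjusted p = 0.0377, at most 0.134 among the alternatives) and 0 fell, while 1 was lower at an unadjusted p under 0.05 and voom called 0 lower. Of 17 genes of the anaphase-promoting complex 0 were called, Anapc2 having the smallest p (-0.09, limma adjusted p = 0.158) and the one unadjusted p under 0.05, and voom also called 0. Of 45 tested DNA replication genes, which act in S phase, Rrm2, a subunit gene of ribonucleotide reductase, rose (0.16, limma adjusted p = 0.0254) and 0 fell. The call of Rrm2 was lost without replicate 3 of control PF (0.101) and without replicate 1 or 3 of TNBS PF (0.0891 and 0.0823), and with no filter (0.0641). Among these DNA replication genes 3 were lower at an unadjusted p under 0.05, and voom called 2 lower. The counts of these lists are to be read beside 14.3% of all tested genes lower at an unadjusted p under 0.05. Voom called 8.09% of all genes it tested lower. The helicase gene Mcm2 was at 0.002 and the sliding clamp gene Pcna at -0.02.

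Larger changes lay among the G1 genes, of which 4 of 13 tested rose and 3 fell. Ccnd1, encoding cyclin D1, which carries growth signals into the cell cycle, was at 37.4, 38.0 and 38.4 FPKM in control PF, 54.0, 53.7 and 52.5 in TNBS PF, and 38.8, 40.6 and 41.2 in PBS. The TNBS PF libraries stood apart from all others, with a log2 fold change of 0.48 against control PF (SE 0.0313, limma adjusted p = 2.47e-06) and 0.40 against PBS. Myc, a growth-promoting transcription factor gene, was at 0.30 and Ccnd2, cyclin D2, at 0.24 (limma adjusted p = 0.000197 and 0.000984), and Ccnd1, Myc, Ccnd2 and Mybl2 passed under each of the 19 alternatives. The inhibitor gene Cdkn1a was at 0.17 (limma adjusted p = 0.0758). The other called genes, chosen after their values were seen, were Cdk6 at 0.19 and the inhibitor genes Cdkn2c, Cdkn2a and Cdkn1b at -0.20, -0.15 and -0.13 (limma adjusted p = 0.0442, 0.00307, 0.00921 and 0.0178). Cdk6 lost its call without any 1 of the 6 libraries compared (0.0682 to 0.147), and Cdkn1b without replicate 1 or 3 of control PF (0.0535 and 0.0524) or replicate 1 or 3 of TNBS PF (0.0612 and 0.0778). Cdk6 was also lost with no filter (0.0734), TPM scaling (0.0646) and only the 2 groups compared (0.0507), and Cdkn2a with the GC correction (0.0502).

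**Figure D5:**
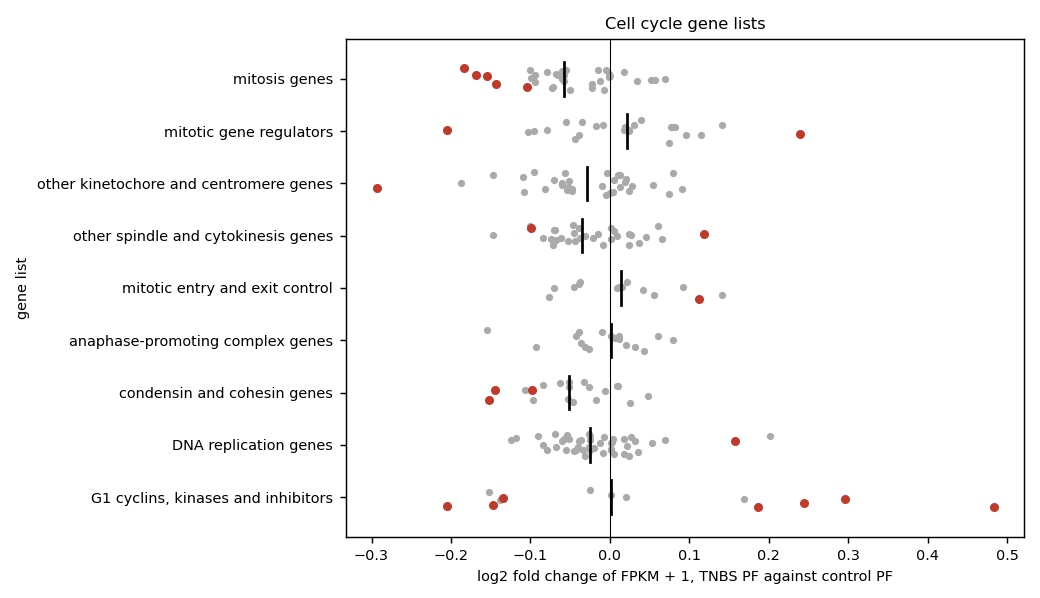
Each point is a tested gene, placed by its log2 fold change of FPKM + 1 in TNBS PF against control PF (horizontal axis) within its list (vertical axis), red where the adjusted p is under 0.05, with a black line at the list's median. The mitosis genes have 5 red points below 0 and the G1 list has 4 above and 3 below, of which Ccnd1 at 0.48 is the farthest right.

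The number of called mitosis genes depended on single libraries. In TNBS PF against control PF, 1 of 34 was called, in place of 5, without replicate 2 or 3 of control PF or without replicate 1 or 3 of TNBS PF, and 2 were called without replicate 2 of TNBS PF. Top2a was called in each of these cases. In TNBS PF against PBS, 2 were called, in place of 7, without replicate 1 or 2 of TNBS PF, 4 without its replicate 3, and 3 without replicate 1 of PBS. Kif4 was among them each time. The calls over all tested genes moved too when any 1 of the 9 libraries was left out. Against control PF they went from 1117 to between 660 and 1254. Against PBS, where the full fit called 822 higher and 936 lower, they lay between 1148 and 1737.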

How the data were processed

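The authors deposited 1 table with FPKM per library, per the file headers, beside a log2 fold change and a p-value for each pair of groups, from a test the sources do not name. Per the submitters' processing notes, cutadapt 1.15 and build mm10 were used. Aligner, counter and strandedness: not given in the sources used here. Multiplied by GENCODE M21 exon lengths, 97.2 to 97.3% of values under 1000 fragments were whole within 0.01, which gave the depth. The 34 genes, the lists and the tests were chosen with earlier results of these data known.

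FPKM were taken as log2(FPKM + 1). Genes reaching 1 FPKM in 3 or more libraries, 10537 in all, entered 1 model over 9 libraries in limma 3.58.1 (R 4.3.3, mean-variance trend, Benjamini-Hochberg adjustment over all tested genes, threshold 0.05), a procedure also tested on simulated data. Over the 3 comparisons it recovered 2.5 to 7.5% of simulated log2 changes of 0.1 and 5 to 20% of those of 0.15. For changes of 0.25, 0.5 and 1 it recovered 42.5 to 47.5%, 90 to 97.5% and 97.5 to 100%. The changes were put in a small random share of all tested genes, whose median SE was 0.0545, beside 0.0351 for the mitosis genes. The recovery rates are thus not those of the mitosis genes. Unchanged genes made up 7.83% of the simulated calls in TNBS PF against control PF, 3.96% in control PF against PBS and 4.67% in TNBS PF against PBS. Named are the 34 genes, up to 3 called genes of each other list or its gene of smallest p, and 8 preset genes (Foxm1, Mybl2, E2f1, Mcm2, Pcna, Rrm2, Ccnd1 and Cdkn1a). Alternatives, 17 planned and 2 added after the data were seen (length and GC), covered pseudocount, filter, scaling, voom, the groups entered, a replicate block and leaving out each library.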

Additional observations from a re-analysis of the deposited data

How the results depend on the processing

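Of 19 alternatives, none turned the direction of a called mitosis gene. The number of mitosis genes called in TNBS PF against control PF, 5, was 3 with no filter, 3 with median-ratio scaling and 3 with the length correction. In TNBS PF against PBS, 7 became 4 with median-ratio scaling. In the full fit 5.45% and 8.88% of all tested genes were called lower in these 2 comparisons. With median-ratio scaling the lower calls over all tested genes against control PF also became fewer. For the other alternatives of these counts, the calls over all tested genes are not set beside them. Whether the mitosis genes lost calls more than all tested genes was thus not tested. With a replicate block the count in TNBS PF against control PF was 3 and all genes called were 906; the numbers are not known to mark anything shared, and deviations of same-numbered libraries correlated at -0.098 to 0.075 over all tested genes. Over the 34 mitosis genes alone they correlated at 0.38, 0.24 and 0.28 between control PF and TNBS PF, at -0.58, -0.43 and -0.37 between control PF and PBS, and at -0.23, -0.13 and -0.0015 between TNBS PF and PBS. Pairs of different number gave -0.23 to -0.075, -0.14 to 0.54 and -0.20 to 0.41 in the same order. Deviations sum to 0 within a group, which ties pairs of same and different number together, and a shared effect of the number was not tested. The block lost Mki67 (limma adjusted p = 0.0795), Kif11 (0.0613), Cks1b (0.0592), Kif2a (0.0742), Ckap2l (0.0808), Smc2 (0.0763), Rrm2 (0.0518) and Cdk6 (0.0760) against control PF and Nusap1 (0.0527) against PBS. The median log2 fold change of the mitosis genes in TNBS PF against control PF was -0.039 with median-ratio scaling and -0.046 with the GC correction. In TNBS PF against PBS it was -0.074 with TPM scaling, -0.032 with median-ratio scaling, -0.038 with the length correction and -0.038 with the GC correction, and in control PF against PBS -0.017 with TPM scaling. The count over all genes in control PF against PBS, 227, was 103 with no filter and 374 with voom. The cause was not tested. Leaving out 1 library at a time gave 1 to 5, 0 to 0 and 2 to 8 called mitosis genes in TNBS PF against control PF, control PF against PBS and TNBS PF against PBS. The medians ranged from -0.057 to -0.049, from -0.0066 to 0.0090 and from -0.058 to -0.039, and the counts over all genes from 660 to 1254, 115 to 301 and 1148 to 1737. The log2 fold change of 11, 14 and 6 of the 34 mitosis genes, none of them called, changed sign under at least 1 alternative in the 3 comparisons. With 3 libraries a group and shifts near 0.1 on the log2 scale, a gene that missed the threshold is not shown to be equal between groups.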

Other observations

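In the authors' deposited table, 6 of 34 mitosis genes were lower in TNBS PF than in control PF with a p-value under 0.05 and 3 were higher (Ccnb1, Anln and Ect2), beside 9.99% and 12.2% of the 10537 genes tested here. The authors' deposited table gave 9 lower and 1 higher (Anln) in TNBS PF against PBS, beside 11.4% and 13.7%, and 0 of 34 in control PF against PBS, beside 4.64% lower and 4.75% higher. In the authors' deposited table the largest absolute log2 fold change among the 34 was 0.182 in TNBS PF against control PF, 0.0871 in control PF against PBS and 0.168 in TNBS PF against PBS, and 0 of 34 reached 1.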
